A study of Homo sapiens and Mus musculus with 9 samples.

Results

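Total small RNA sense peaks in 3' UTRs are positions, downstream of the coding region of an mRNA and on its own strand, at which small RNA reads of the total library piled up. They were taken as every entry of the total sense peak list that carries the region label 3' UTR, which gave 1033 of 3416 peaks. The 1033 peaks lay on 585 transcripts, of which 579 had a gene symbol, and 7 peaks had none. An entry gives a transcript, a gene symbol, a distance in nt from the start codon, a region and a read count, and the lowest count listed is 4. The sources used here do not state which end of a read the position marks.

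Both small RNA libraries, titled Control_Total and Control_Cap, came from wild-type HEK293, an established human embryonic kidney cell line, with no treatment named beyond "Control". Per the labels' protocols, short RNA was separated on columns and stripped of its 5' phosphates. One portion was then decapped with Cap-Clip, a pyrophosphatase, so that RNAs that had a cap became ready for ligation, and the other portion was rephosphorylated with T4 PNK. The labels do not say in words which portion gave which library. The ribosome profiling libraries used near the end are also of wild-type HEK293: control, starvation, and a pair (trans1 and trans2) under starvation and transfected with trans-RNA against ATF4. Each group is 1 library, so nothing was tested against replicate error, no p-value is given, and intervals in brackets are exact 95% binomial (Clopper-Pearson) intervals. Reads carry no molecular identifiers, so these intervals cover counting error only. Intervals over peaks take each peak as independent, while neighbouring peaks can share a source, so they can be too narrow.

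As background, the 3' UTR of an mRNA carries signals for stability, localisation and translation, and short RNAs can come from it by cleavage of the mRNA. Genome annotation also places separate small RNA genes, such as those of microRNAs, tRNAs, small nucleolar RNAs (snoRNAs, which guide rRNA modification and processing) and pseudogene copies of spliceosomal RNAs, within or beside mRNA genes. RNA polymerase II products start with a cap, tRNAs do not, and a mature microRNA begins with a 5' monophosphate left by its processing enzymes. A read at a 3' UTR position can belong to either kind of RNA, and these lists do not say to which.

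The clearest case with a known sequence is VMP1, which encodes a membrane protein of autophagy, because the gene of the oncogenic microRNA miR-21 lies in the RefSeq span of VMP1, nearer its 3' end. The mature sequence is shown because its place in the hairpin can be set beside the pattern of VMP1 peaks. It is from RefSeq on GRCh38.p14, written 5' to 3', with the seed (bases 2 to 8) in capitals.
hsa-miR-21-5p: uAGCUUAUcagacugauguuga
In the total library, VMP1 (ENST00000262291) carried 15 peaks between 2561 and 2621 nt, with 11045 reads. A single position, 2582 nt, held 10766 of them (97.5%), the positions 1 nt to either side held 88 and 23, and a small second group began 38 nt downstream with 58 reads at 2620 nt and 7 at 2621 nt. A small group of like size lay upstream, with 5, 10, 20 and 27 reads at 2561, 2562, 2564 and 2565 nt. In the RefSeq hairpin of 72 bases, miR-21-5p starts at base 8. If 2582 nt is set at that base, the hairpin would run from 2575 to 2646 nt of VMP1, the downstream group would begin at hairpin base 46, and the upstream group would lie outside the hairpin, 17 to 21 nt before 2582 nt. This alignment was made by position only, since the sequence of the transcript was not used here. The cap library had 225 reads at 2582 nt.

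The 3' UTR held 30.2% (28.7 to 31.8) of total sense peaks, against 56.9% in the coding region (CDS) and 12.8% in the 5' UTR. It held 338499 of the 536974 listed reads (63.0%), against 11.6% in the CDS and 25.4% in the 5' UTR. A typical 3' UTR peak was small. The median count was 8 (7 to 9), the middle 50% of peaks lay between 5 and 21 reads, and 565 of 1033 (54.7%) had 4 to 9 reads, so that most stood close to the lowest count listed. The CDS median was 6 and the 5' UTR median 13. At the upper end, 80 peaks (7.74%) had 100 or more reads, and 13 had 1000 or more. The share with 100 or more was 6.53% for total sense peaks of all regions, 2.57% in the CDS and 21.2% in the 5' UTR. Many of the 80 lay in a few genes, CTC1, TMEM107 and ZNF354B among them, and the 7.74% was not recounted without those genes. In the cap sense list the 3' UTR held 649 of 4521 peaks (14.4%), while the 5' UTR held 61.7%. In the antisense lists the 3' UTR share was 31.8% for total and 32.4% for cap.

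A handful of genes held nearly all 3' UTR reads. CTC1, TMEM107, ZNF354B, PLCG2, COX7C and VMP1, the 6 genes with the most peaks (a group set after its values were seen), carried 299 peaks (28.9%) and 311354 reads (92.0%). The other 579 genes carried 734 peaks and 27145 reads (8.02%), with a median of 7 reads. Without the 6 genes the 3' UTR share of peaks was 23.6% and its share of listed reads 12.03%, and without CTC1 alone the share of reads was 39.5%. Of the 585 transcripts, 492 (84.1%) had a single 3' UTR peak.

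**Figure D1:**
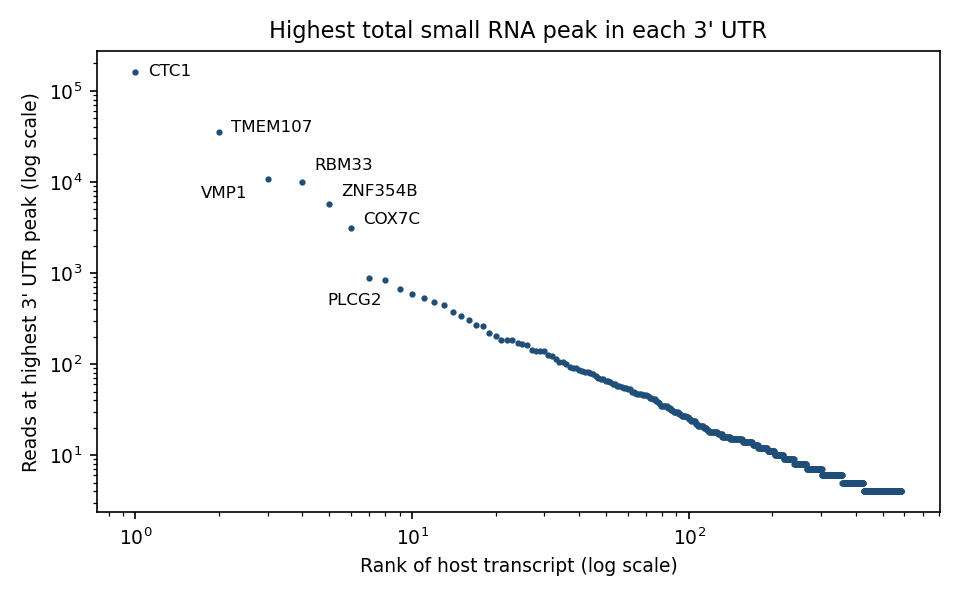
Reads at the highest total 3' UTR peak of each of the 585 host transcripts (vertical axis, log scale) by rank (horizontal axis, log scale), 1 point per transcript. CTC1 with 162006 reads and TMEM107 with 35489 stand at the top, and the highest peak falls below 1000 reads from the seventh transcript on.

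CTC1 (ENST00000651323), which encodes a subunit of the CST complex that maintains telomeres, had 92 peaks and 208736 reads, 61.7% of all 3' UTR reads. They fell into 3 separate stretches (peaks of either library linked by gaps of at most 50 nt). The first ran from 4760 to 4843 nt with its highest count, 41881, at 4769 nt. The second ran from 5135 to 5218 nt with 162006 reads at 5142 nt, which is 98.9% of that stretch. The third ran from 5517 to 5605 nt with 713 reads at 5525 nt. The stretches were thus of like width, 84, 84 and 89 nt, and each had its highest position 7 to 9 nt from its first. RefSeq places 3 tRNA genes or pseudogenes in the span of CTC1 (TRT-AGT1-2, TRS-AGA2-6 and TRI-AAT4-1), which were not assigned to the stretches. At the same positions the cap library had 870, 26028 and 5 reads.

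TMEM107 (ENST00000437139), a protein of the ciliary transition zone, had 92 peaks and 68309 reads in 1 stretch from 1035 to 1168 nt. The total library was highest at 1091 nt with 35489 reads and at 1087 nt with 24497. The cap library was highest at 1037 nt, 54 nt upstream, with 104160 reads, or 85.7% of its reads in the stretch. At 1037 nt the total library had 19 reads, 0.0278% of its own, and at 1091 nt the cap library had 26. The RefSeq span of TMEM107 holds SNORD118, the gene of U8, a box C/D snoRNA of ribosomal RNA processing, nearer its 3' end.

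ZNF354B and PLCG2 showed the same order, with the cap library highest near the upstream edge of the stretch and the total library highest further downstream. In ZNF354B (ENST00000322434), a zinc finger gene with 42 peaks and 14489 reads, the total library was highest at 2296 nt with 5744 reads, followed by 3335 at 2294 nt and 3024 at 2288 nt. The cap library was highest at 2262 nt, 34 nt upstream, with 8297 reads (79.1%), where the total library had 51. The RefSeq span holds RNU1-39P, a pseudogene of the U1 spliceosomal RNA. In PLCG2 (ENST00000564138), which encodes a phospholipase C of immune receptor signalling, 37 peaks held 2391 reads with 847 at 7835 nt. The cap library had 7469 reads (98.1%) at 7725 nt, 110 nt upstream, where the total library had 341 (14.3%). RN7SKP176, a pseudogene of the 7SK RNA, lies in that span. CTC1, VMP1 and COX7C differed from these 3 genes in that both libraries were highest at the same position in the leading stretch.

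COX7C (ENST00000509578), a subunit of cytochrome c oxidase, had 21 peaks and 6384 reads, nearly all at a pair of neighbouring positions with 3118 reads at 1230 nt and 2988 at 1229 nt. The cap library had 80 and 52 there. SNORD138, a snoRNA gene, lies in its span. RBM33, an RNA-binding protein, had 9974 reads at 3778 nt and 225 at 3777 nt, with 1434 and 5 in the cap library, and no small RNA gene in its RefSeq span.

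**Figure D2:**
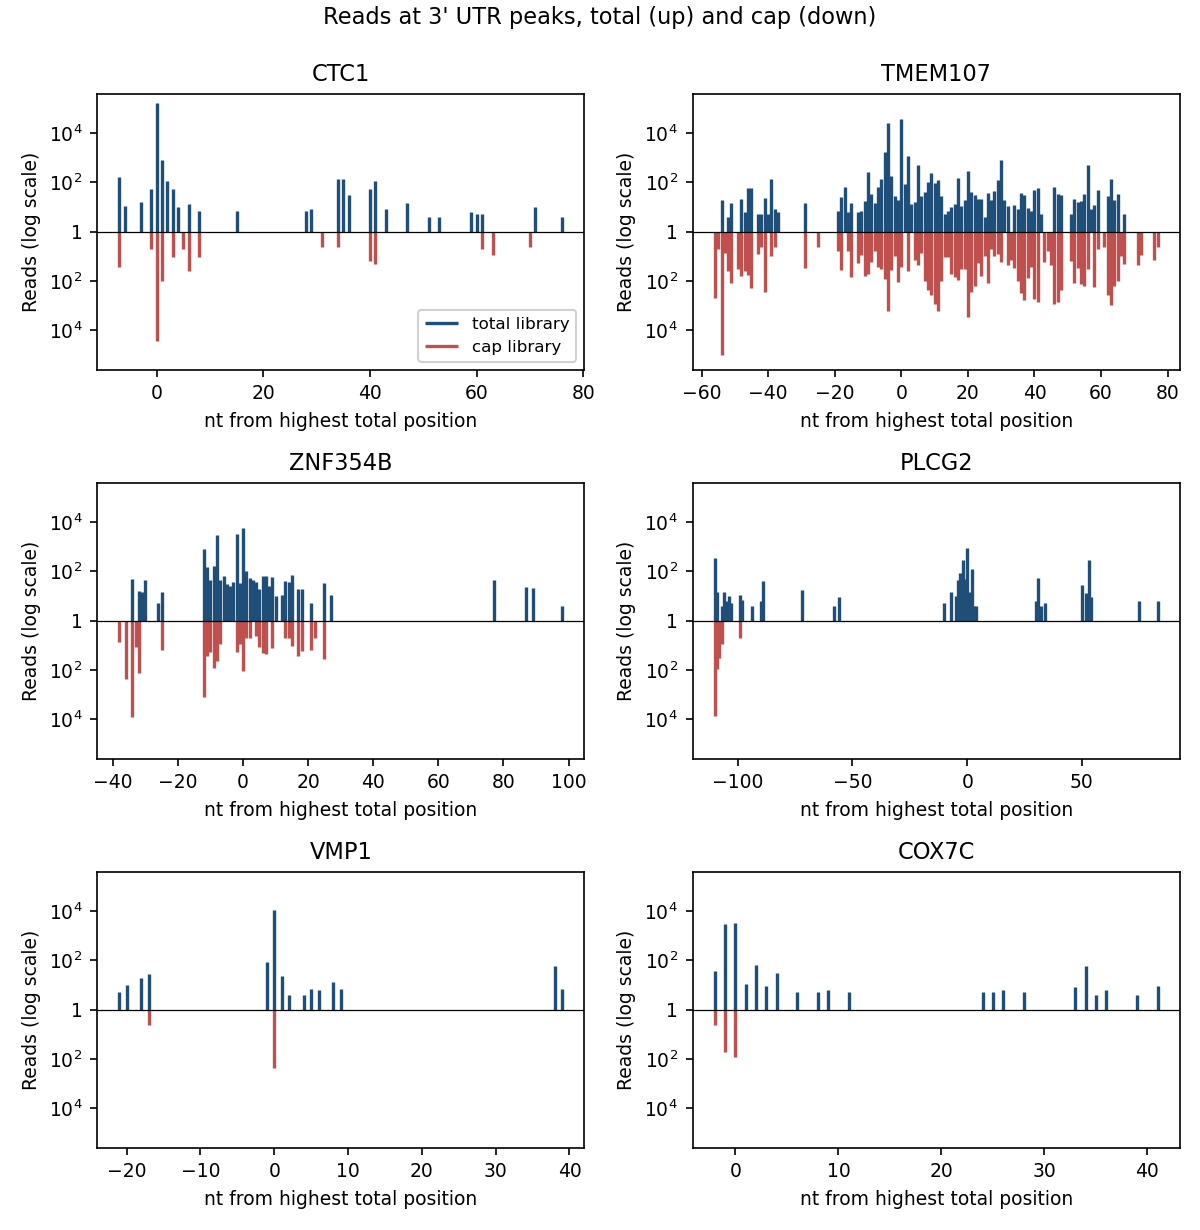
Reads at each listed 3' UTR position in the stretch with most total reads in 6 genes, total library upward and cap library downward, both on a log scale; the horizontal axis is the distance in nt from the highest total position. In TMEM107, ZNF354B and PLCG2 the tallest cap line stands 54, 34 and 110 nt upstream of the tallest total line, and in CTC1, VMP1 and COX7C both stand at 0.

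The remaining genes among the first 10 by highest peak were B4GALNT2, SNPH and TMC5. B4GALNT2, a glycosyltransferase, had 873 reads at 7969 nt and 164 at 7976 nt, with 234 and 47 in the cap library. SNPH, which anchors mitochondria in axons, had 673 reads at 2376 nt and 14 in the cap library. TMC5, a transmembrane channel-like protein, had 591 reads at 3037 nt, with no cap peak at that position but 17 cap reads at 3038 nt. A pseudogene of the U4 spliceosomal RNA (RNU4-46P) lies in its span.

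Below these, several genes had a single sharp position that was listed in both libraries. LRRN4CL had 534 total and 811 cap reads at 877 nt. An unnamed transcript, ENST00000555938, had 480 total and 659 cap reads at 847 nt. ARIH1, a ubiquitin ligase of the RBR family, had 335 total and 236 cap reads at 18365 nt. ZFP36L2, which binds AU-rich elements and promotes mRNA decay, had 268 and 431 at 1983 nt, and the transcription factor KLF2 had 143 and 350 at 1353 nt. TRIM67 had 115 against 1527 and the chromatin remodeller CHD6 had 106 against 483. Other genes went the other way, such as SHISA9 with 370 total and 20 cap reads and AFAP1L1 with 218 and 16. Outside the 6 genes with most peaks, 195 positions were listed in both libraries. The total count was higher at 76 of them, the cap count at 110, and 9 were equal. KCNJ15, a potassium channel, had its single total peak at 7456 nt and no cap peak in the 3' UTR, and ATAD5, which unloads PCNA from DNA, had 10 peaks of at most 45 reads with no cap peak. LRRN4CL, ZFP36L2, KLF2, TRIM67, CHD6, SHISA9, AFAP1L1, KCNJ15 and ATAD5, and below ATP5MC3 and the genes with antisense reads, were named after their values were seen.

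Small RNA genes of RefSeq lay in the span (introns included) of 131 of 573 host genes with an entry, or 22.9% (19.5 to 26.5), against 14.2% of RefSeq protein-coding genes. Hosts of CDS peaks stood at 22.9% and hosts of 5' UTR peaks at 20.1%, so the share was not higher for 3' UTR peaks than for CDS peaks. It was 34.3% (19.1 to 52.2) for hosts whose highest peak had 100 or more reads, 24.7% for 20 to 99 reads and 21.7% for 4 to 19 reads, and these intervals overlap. Of the first 10 hosts by highest peak 7 had such a gene, and so did 6 of the 6 genes with most peaks. All 6 are also among those first 10, so these are not separate counts. Gene length, which raises the chance of holding a small RNA gene, was not tested, and whether a peak lies on the small RNA gene itself was not tested.

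Sharing with the cap library was counted for peaks with a cap sense peak on the same transcript within 10 nt. Of the 1033 total 3' UTR peaks, 478 (46.3%, 43.2 to 49.4) were shared, against 37.1% of total sense peaks of all regions. The share was 27.0% for the CDS and 60.7% for the 5' UTR. At the very same position, 349 (33.8%) were listed in both. The shared 3' UTR peaks held 97.6% of the 3' UTR reads. Much of the difference from the CDS came with the 6 genes: 252 of their 299 peaks (84.3%) were shared, and without them 226 of 734 (30.8%, 27.5 to 34.3). Counted by transcripts, 172 of 585 (29.4%) had a shared 3' UTR peak, close to the 31.0% for the CDS and 35.9% for the 5' UTR.

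The share rose with the reads at the total peak. It was 29.0% for 3' UTR peaks with 4 to 9 reads, 62.4% with 10 to 99 reads, and 72 of 80 (90.0%) with 100 or more. The same order held in the CDS (16.2%, 46.9% and 88.0%) and in the 5' UTR (33.7%, 71.6% and 97.8%). A cap signal under 4 reads is not listed, so an unshared peak is not shown to lack cap reads. In the other direction, 399 of 649 cap 3' UTR peaks (61.5%) had a total peak within 10 nt, against 48.4% in the CDS and 9.39% in the 5' UTR. TMEM107 held 99 of the 649 cap peaks and ZNF354B 30, and the 61.5% was not recounted without the genes with most peaks. By transcripts, 172 of 380 (45.3%) had such a cap 3' UTR peak, against 45.9% for the CDS and 4.54% for the 5' UTR. The higher share than in the CDS was thus not seen by transcripts. A 3' UTR peak in both lists was found for 190 transcripts, which is 32.5% of the 585 in the total list and 50% of the 380 in the cap list.

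**Figure D3:**
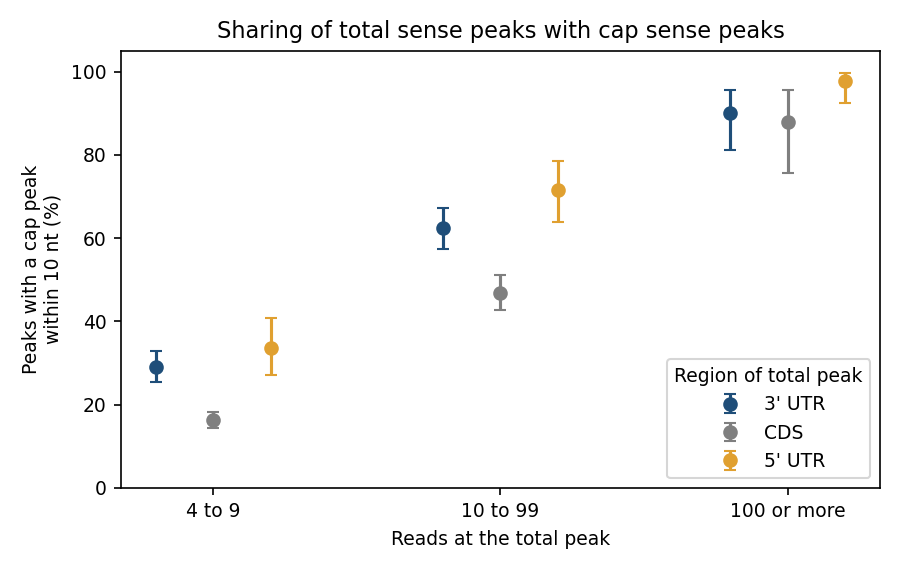
Percent of total sense peaks with a cap sense peak on the same transcript within 10 nt (vertical axis) by reads at the total peak, for the 3' UTR, CDS and 5' UTR; points are shares and bars exact 95% binomial intervals. The 3' UTR share goes from 29.0% to 62.4% to 90.0%, and the intervals of the 3 regions lie close together or overlap at 100 or more reads.

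At the 349 positions listed in both libraries the median was 19 reads in total and 19 in cap. The total count was higher at 157, the cap count at 179, and they were equal at 13. Since the depth of the libraries is not known, these are counts side by side and no change is read from them. The genes went different ways. In CTC1 the total count was higher at 29 of 35 positions and in ZNF354B at 19 of 26, whereas in TMEM107 the cap count was higher at 56 of 84.

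**Figure D4:**
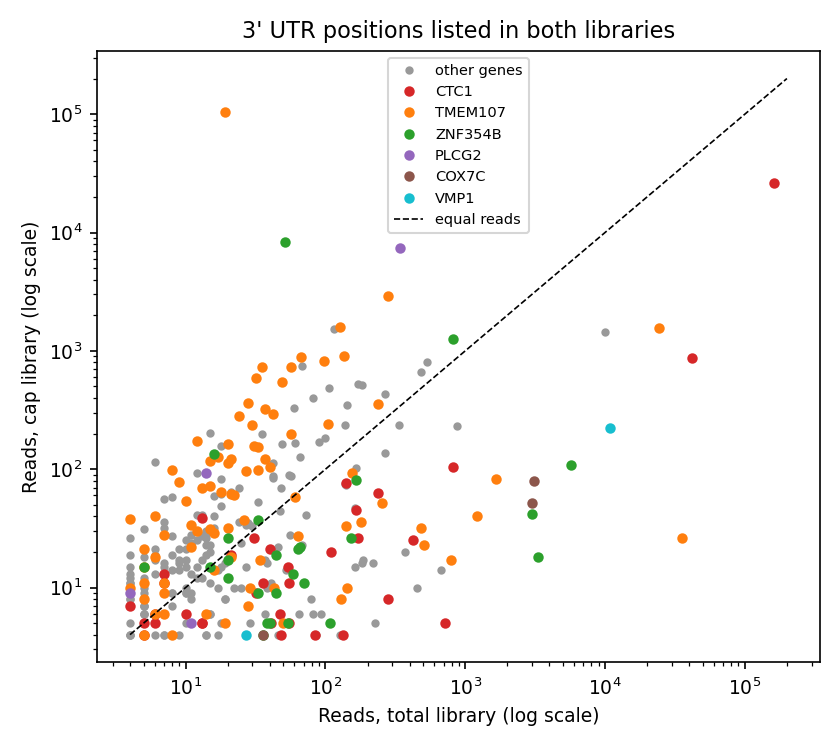
Reads in the cap library against reads in the total library (both log scales) at the 349 positions of 3' UTRs listed in both, 1 point per position, with the 6 genes with most peaks in colour and a dashed line of equal counts. TMEM107 at 19 total and 104160 cap reads stands at the upper left, and CTC1 at 162006 and 26028 at the upper right.

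Linked by gaps of at most 50 nt, the 3' UTR peaks formed 629 stretches, of which 556 (88.4%) held 1 total peak, 64 held 2 to 9 and 9 held 10 or more. A cap peak lay in 177 stretches (28.1%). In 157 of these 177 (88.7%) the highest total and the highest cap count stood at the same position, in 15 they stood within 10 nt, and in 5 further apart. Among the 10 such stretches with 1000 or more total reads the numbers were 6, 1 and 3, the last being TMEM107, ZNF354B and PLCG2.

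Within a transcript the 3' UTR peaks were closely spaced. Of 448 gaps between neighbouring peaks, 278 (62.1%) were 1 nt and 381 (85.0%) at most 10 nt, against 26.3% and 41.0% in the CDS and 87.7% and 97.9% in the 5' UTR. Without the 6 genes 51.6% of 155 gaps were 1 nt and 67.7% at most 10 nt. Neighbouring positions can share a source, so the 1033 peaks are not 1033 separate RNAs.

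The 3' UTR peaks lay from 269 to 24669 nt from the start codon, with a median of 2990 and the middle 50% between 1778 and 5218 nt. The nearest were in TMSB10, an actin monomer binder, at 269 nt (4 reads), ENST00000484532 at 280 nt (9 reads) and the ribosomal protein gene RPL41 (6 reads). The farthest were in the kinase gene RPS6KA5 at 24669 nt (8 reads), the transcription factor gene ZBTB20 at 23344 nt (5 reads) and ARIH1 at 18365 nt (335 reads), so that a high count was also found far downstream.

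Distance past the coding end could be had for 273 of the 1033 peaks, on 181 transcripts whose coding length was recovered from the footprint tables. The 273 peaks lay 8 to 16688 nt past the coding end, with a median of 1366 and the middle 50% between 669 and 2626 nt, and 0 lay before it. The method can return a fraction of the actual coding length, which lengthens these distances and moves peaks past the end. The 0 is therefore no check of the label. A length above the actual one did not come back on simulated tables, but was not tested for on these data. The distances are thus not strict upper values. Named examples were VMP1 at 1358 nt past, COX7C at 1035 nt, ATP5MC3, a subunit of ATP synthase, at 1720 nt, and the actin gene ACTG1 at 238 nt. The region label and the recovered length did not match close to the stop codon. In the first 100 nt past the recovered end, 5 peaks carried the label 3' UTR and 24 the label CDS. From 100 to under 200 nt the numbers were 9 and 13, from 200 to under 400 nt 24 and 12, from 400 to under 1000 nt 54 and 5, and from 1000 nt on 181 and 5. In all, 59 of 673 CDS-labelled peaks (8.77%) lay past the recovered end. How many of the 59 rest on a length recovered as a fraction was not tested. Where both could be judged, 22.9% of 1194 peaks carried the label 3' UTR and 27.8% lay past the recovered length.

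**Figure D5:**
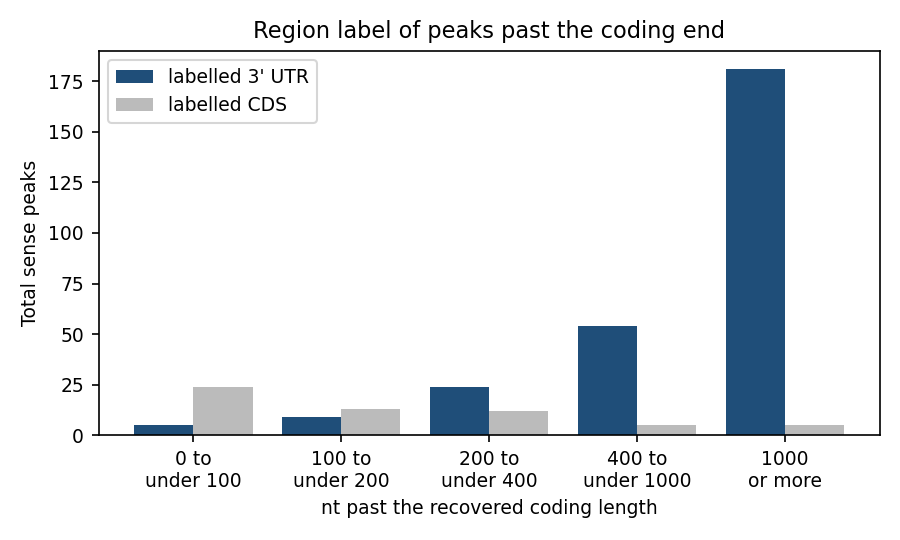
Number of total sense peaks (vertical axis) by distance past the recovered coding length in nt (horizontal axis, bins of unequal width), for peaks labelled 3' UTR and CDS. CDS labels outnumber 3' UTR labels in the first 100 nt, 24 to 5, and 3' UTR labels lead from 200 nt on.

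Some hosts also had total peaks elsewhere. Of 585 transcripts, 62 (10.6%) also had a CDS peak and 7 (1.2%) a 5' UTR peak. In the total sense list 1330 transcripts had a CDS peak and 251 a 5' UTR peak. Peaks in another region were not counted for those hosts, so these shares are not shown to be particular to 3' UTR hosts. Peaks in all 3 regions were found in 2: ACTG1, with highest counts of 78 in the 3' UTR, 23 in the CDS and 4 in the 5' UTR, and GABRG3, a GABA receptor subunit, with 5, 4 and 5.

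Gene groups were counted by how many of their members in any of the peak lists had a total 3' UTR peak, and over all 5745 symbols this was 579 (10.1%). Of 65 cytosolic ribosomal protein genes 58 were in the total sense list, but 1, RPL41, had a 3' UTR peak, and of 7 mitochondrially encoded genes, whose mRNAs have almost no UTR, 7 were in that list and 0 had one. Replication-dependent histones had 1 of 22, H3C13 with 6 reads at 422 nt. Translation factors had 2 of 29, EIF4H with 6 reads and EEF2 with 4. Zinc finger genes named ZNF had 17 of 142, and apart from ZNF354B their highest count was 31 in ZNF648. Solute carriers had 12 of 108, led by the anion exchanger SLC4A1 with 85 reads and the nucleotide sugar transporter SLC35D1 with 74. These are counts over named lists with no test.

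Chaperones had 4 of 44, among them HSP90AA1 with 4 peaks of at most 17 reads, and splicing regulators of the HNRNP and SR families had 3 of 25, led by SRSF3 with 8. Tubulins and actins had 2 of 8, ACTG1 with 78 and ACTB with 5 reads. Selenoproteins, whose 3' UTRs hold the SECIS element that recodes a stop codon, had 2 of 8, SELENOS with 13 reads and SELENOI with 4. TFRC, whose 3' UTR holds iron response elements, had a total sense peak but none in the 3' UTR. Immediate early genes had 1 of 15, EGR3 with 6 reads. Genes that host snoRNAs in their introns had 5 of 31, led by TPT1 with 38 reads. Genes of the ATF4 pathway and integrated stress response had 2 of 9, HERPUD1 with 15 reads, which was shared with the cap library, and CEBPB with 6.

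Antisense peaks of the total library lay on 98 of the 585 transcripts (16.8%, 13.8 to 20.0), against 13.2% of all transcripts with a total sense peak, 12.8% of those with a CDS peak and 8.37% of those with a 5' UTR peak. On 54 (9.23%) the antisense peak was itself in the 3' UTR. The highest was PLS3, an actin-bundling protein, with 476 antisense reads at 2063 nt and 7 sense reads at 2737 nt. ZNF236 followed with 251 antisense at 9031 nt and 4 sense at 6718 nt, and NACC2 with 166 at 5108 nt and 46 at 4032 nt. Of the 1033 peaks, 7 (0.678%) had a total antisense peak within 10 nt, against 1.90% of CDS peaks and 0.228% of 5' UTR peaks. These included LRRN4CL with 534 sense and 10 antisense reads 1 nt apart, SERTM1 with 90 and 7, and the metabotropic glutamate receptor gene GRM6 with 4 sense reads at 4851 nt and, antisense, 42 at 4850 nt and 154 at 4849 nt. None of the 6 genes with most peaks had a total antisense peak. With a minimum of 10 reads in both lists the share of host transcripts was 6.85%, and no share over all transcripts is given at that minimum.

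Footprints immediately past the stop codon were looked for on the host transcripts in the 4 ribosome profiling libraries. In control, 78 host transcripts, or 24.7% of those with signal (20.0 to 29.8) had a footprint in the 30 nt past the stop codon, against 21.2% of all 10979 transcripts with signal and 24.5% of transcripts that carried only other total sense peaks. In hosts, in all transcripts and in those with only other total sense peaks the share was 20.1%, 15.9% and 18.8% in starvation, 17.5%, 16.8% and 18.8% in trans1, and 24.4%, 20.4% and 22.4% in trans2, so hosts stood below the last group in trans1. Median recovered reads of the same 3 groups were 753, 605 and 1081.5 in control, 727.5, 550 and 1113 in starvation, 560, 396 and 754.5 in trans1, and 542, 457 and 897.5 in trans2, so hosts lay above all transcripts and below those with only other total sense peaks. The part of read depth in the share was not tested, and the tables do not reach the peaks themselves, most of which lie further downstream.

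The cell line label could be checked only in part, because symbols are paired with transcripts in the peak lists alone. Among markers of HEK293, PAX2, NEFL, KRT8 and KRT18 had a peak in some list, with 968 recovered control footprints for NEFL, and VIM, EYA1, LHX1 and NEFM had none. Of 8 markers of liver, blood, fibroblasts and muscle, COL1A1 had a peak and the other 7 none. None of these markers had a total 3' UTR peak.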

How the data were processed

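Small RNA of HEK293 was measured in 1 total and 1 cap library, and ribosome footprints in 4 libraries. The deposited peak lists hold whole-number read counts per position and, as the other value, the distance from the start codon. Per the submitters' processing notes, the tools were STAR 2.7.10a, Bowtie 1.2.3, cutadapt 2.8 and bcl2fastq 2.20.0.422, with no role given. The peak caller, the treatment of reads that map to several places and the genome build of the small RNA libraries are not given in the sources used here, so counts at near-identical copies (tRNAs, U1 and 7SK pseudogenes) are uncertain and no genome coordinate is printed. The lists hold part of each library, so depth is unknown: 536974 reads are listed in total sense and 637679 in cap sense. The deposited footprint tables give density signal by nt around stop codons, relative to the transcript's own mean.

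Sharing, stretches, spacing and shares were computed with Python 3.11.15, pandas 2.3.3 and scipy 1.17.1. Coding lengths were recovered from the density signal at -99 to 30 nt, whose values are whole multiples of coding length divided by reads, for transcripts with at least 3 distinct values in at least 2 libraries (5919 transcripts). On simulated tables the step came back exactly or as a divisor. RefSeq (GRCh38.p14) was used for gene names, for which small RNA genes lie in a host's span, and for the microRNA. Named genes are the 10 hosts with the highest peak, the 5 with most peaks, the 10 highest shared peaks, the 3 nearest and 3 farthest, hosts with peaks in all regions and the leading members of each list. The members and lists were chosen with earlier results of these data known. Alternatives were other read minimums, windows, merging of peaks within 10 nt, and leaving out genes.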

Additional observations from a re-analysis of the deposited data

How the results depend on the processing

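Of 26 alternatives, 10 moved a value by less than its interval and 16 by more. The 3' UTR share of total sense peaks, 30.2%, was 35.2% with a minimum of 10 reads and 37.4% with 20. It was 25.1% with peaks within 10 nt merged, 27.0% with 1 peak per gene and region and 23.6% without the 6 genes with most peaks. By recovered coding length it was 27.8%, but over the 1194 peaks that could be judged, where the label gave 22.9%. The share of 3' UTR peaks shared with cap, 46.3%, was 33.8% at the same position, 50.0% within 50 nt, 59.2% with a minimum of 10 reads in both lists, 67.1% with that minimum in the total list, 27.9% with merged peaks and 30.8% without the 6 genes. The share of reads in the 3' UTR, 63.0%, was 39.5% without CTC1 and 12.03% without the 6 genes. Transcripts with an antisense peak were 16.8%, and 6.85% with a minimum of 10 reads. Footprints past the stop codon were at 24.7% of host transcripts, and at 37.6% of those with recovered reads in all 4 libraries. For the 6.85% and the 37.6%, no share over all transcripts at the same setting is given. Leaving out the 6 genes and using the recovered length were chosen after seeing the data. No paired analysis was possible because each group is 1 library. Counts under 4 are not listed, which limits every statement on unshared peaks.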
